A study of Mus musculus with 8 samples.

Results

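Cluster 12 was the smallest of the 13 clusters of liver nuclei in the MKO pool and in the control pool, and its nuclei carried the transcripts of mesothelium, the single-layered epithelium that covers the liver surface. Its members are the nuclei that the authors averaged into the cluster 12 column of each pool. The recurring steps of the lowest values give 40 nuclei in the MKO pool and 21 nuclei in the control pool, 61 of 17485 nuclei in all clusters. Cluster 12 held 0.435% of MKO nuclei (40 of 9204, exact binomial 95% interval 0.311 to 0.591%), against 0.254% of control nuclei (21 of 8281, interval 0.157 to 0.387%). The totals rest on the same reading of the other columns, in which control clusters 0 and 1 both gave 1712 nuclei, and no deposited count was at hand to set beside them. With 1 pool per genotype the shares have no replicate check, and the intervals cover counting error only.

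Mesothelial cells sit on a basement membrane under the peritoneal cavity, bear microvilli and a glycocalyx of large mucins such as Muc16 and its binding partner mesothelin, and keep an epithelial surface while expressing many genes of mesenchyme. In the embryonic liver they arise from the same septum transversum mesenchyme as the stellate cells, and lineage tracing in mice has shown that they can give rise to stellate cells and fibroblasts. Transforming growth factor beta is a known inducer of the mesothelial-to-mesenchymal transition in culture.

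Livers came from Tgfbr1 MKO mice (flox/flox; LysMcre) and from control mice that carry the floxed alleles without Cre (flox/flox). LysMcre expresses Cre from the Lyz2 locus, which is active in macrophages, monocytes and neutrophils, and the deletion is therefore aimed at myeloid cells. Mice of both genotypes had eaten a MASH diet, a model of metabolic dysfunction-associated steatohepatitis, for 30 weeks. Each nucleus library pooled 3 livers of 1 genotype, and bulk RNA was measured in 3 MKO and 3 control livers. The labels name neither the age nor the sex of the mice.

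The deleted gene, Tgfbr1, was scarce in cluster 12, at 0.587 per 10000 in MKO nuclei and 1.29 per 10000 in control nuclei, about 7 UMIs (unique molecules) in each, which is too few for a comparison. In cluster 2, where the macrophage list had its highest sum, Tgfbr1 averaged 4.87 in the MKO pool and 13.5 in the control pool. In bulk liver it had 560, 857 and 735 size-factor-scaled counts in MKO livers and 737, 810 and 777 in control livers, and the genotypes overlapped. All nucleus levels below are the authors' means scaled so that each column sums to 10000. The cluster 12 columns rest on 118319 UMIs in MKO nuclei (median 2690.5 per nucleus, range 710 to 7084) and 57310 UMIs in control nuclei (median 2588, range 630 to 5762). As a share of those UMIs, a count of 0 allows up to 0.254 per 10000 in the MKO column and 0.523 in the control column. The means weigh each nucleus equally, so the intervals use a smaller effective number of UMIs, and for a gene at 0 they reach 0.43 in the MKO column and 0.902 in the control column. The text keeps to 1276 well-measured genes, whose larger value in cluster 12 reached 2.05 per 10000, about 24 UMIs in MKO nuclei or 12 in control nuclei. Intervals after a level are approximate 95% Poisson intervals, and they take no account of differences between the pooled livers or of transcripts that come from 1 nucleus.

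Promoter sequences are shown for 4 genes whose transcripts mark cluster 12, Muc16 as the most exclusive gene and 3 others that hold a searched motif. Each is the 250 bases before the RefSeq transcription start in GRCm38.p6, 5′ to 3′ on the gene's strand. Muc16 is at chr9:18674604-18674853 (minus strand), Upk3b at chr5:136038246-136038495 (plus), Igfbp5 at chr1:72874866-72875115 (minus) and Gpc3 at chrX:52613975-52614224 (minus). Capitals mark matches, on either strand, to the TEAD core GGAATG, the GATA site AGATAA or the WT1 core GTGGGAG.
Muc16: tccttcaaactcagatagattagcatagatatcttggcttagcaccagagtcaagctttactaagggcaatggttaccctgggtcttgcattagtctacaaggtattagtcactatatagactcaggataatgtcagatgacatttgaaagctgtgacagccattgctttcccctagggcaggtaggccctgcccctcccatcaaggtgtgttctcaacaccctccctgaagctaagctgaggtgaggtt
Upk3b: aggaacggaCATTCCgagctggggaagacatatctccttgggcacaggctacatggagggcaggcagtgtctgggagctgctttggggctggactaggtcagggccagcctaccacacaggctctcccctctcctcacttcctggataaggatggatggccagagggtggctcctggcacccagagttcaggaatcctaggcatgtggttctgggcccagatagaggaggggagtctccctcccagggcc
Igfbp5: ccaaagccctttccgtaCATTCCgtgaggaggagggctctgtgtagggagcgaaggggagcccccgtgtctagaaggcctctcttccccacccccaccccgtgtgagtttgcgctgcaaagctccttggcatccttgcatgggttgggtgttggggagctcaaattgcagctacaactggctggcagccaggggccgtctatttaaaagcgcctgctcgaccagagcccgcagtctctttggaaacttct
Gpc3: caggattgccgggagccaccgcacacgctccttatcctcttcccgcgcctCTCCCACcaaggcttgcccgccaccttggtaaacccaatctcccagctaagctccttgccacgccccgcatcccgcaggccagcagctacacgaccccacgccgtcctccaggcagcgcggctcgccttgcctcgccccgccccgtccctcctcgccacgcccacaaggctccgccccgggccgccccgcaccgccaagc

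Upk3b held 1 TEAD core, 241 bases before the start, and Igfbp5 held 1, 233 bases before the start. Gpc3 held 1 WT1 core 200 bases before the start, and the Muc16 window held none of the 3 motifs. The windows of Rspo1, Bnc2 and Slpi, which are not printed, held none either, so 3 of these 7 cluster 12 genes had a match. The share of all promoter windows with any of the 3 motifs was not counted, so these 3 of 7 cannot be set against it. TEAD factors carry the Hippo pathway's signal, and Wt1 is a zinc finger factor of mesothelium. Among 32851 promoter windows of all genes, 12.6% held the TEAD core, 9.99% the GATA site and 8.25% the WT1 core. Of the 99 genes that stood highest in cluster 12, described below, 73 had a promoter entry, with 98 windows in all. The TEAD core was in 17.3% of those windows, the GATA site in 4.08% and the WT1 core in 12.2%. A match is a run of letters, not a shown binding site.

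The 5 genes that name the cluster were all far above every other cluster in both pools. Muc16, the membrane mucin also known as CA125, averaged 11.7 per 10000 in MKO nuclei of cluster 12 (interval 9.48 to 14.2, about 138 UMIs) and 14.9 in control nuclei (11.4 to 19.2, about 85 UMIs). The highest other cluster held 0.00191 in the MKO pool and 0.0138 in the control pool, and stellate cluster 5 held 0 in both. Muc16 was therefore close to 0 outside cluster 12. The gene lies at chr9:18495455-18674530 on the minus strand in GENCODE vM21.

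Igfbp5, a secreted carrier of insulin-like growth factors, averaged 26.6 in MKO nuclei (23.2 to 30.2) and 38.4 in control nuclei (32.6 to 44.9). Its highest other cluster was cluster 9, with 1.25 in the MKO pool and 0.167 in the control pool. Gpc3, a glypican that binds Hedgehog and Wnt ligands at the cell surface, averaged 11.7 in MKO nuclei (9.5 to 14.2) and 17.2 in control nuclei (13.4 to 21.7), with no other cluster above 0.0616 in the MKO pool or 0.076 in the control pool. Bnc2, a zinc finger protein of mesenchymal and epithelial cells, averaged 16.9 in MKO nuclei (14.3 to 19.9) and 24.8 in control nuclei (20.2 to 30.1). Slpi, a secreted inhibitor of leukocyte proteases, averaged 14.6 in MKO nuclei (12.2 to 17.4) and 11.9 in control nuclei (8.82 to 15.8). Slpi was the one given marker with the higher value in the MKO pool.

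**Figure D1:**
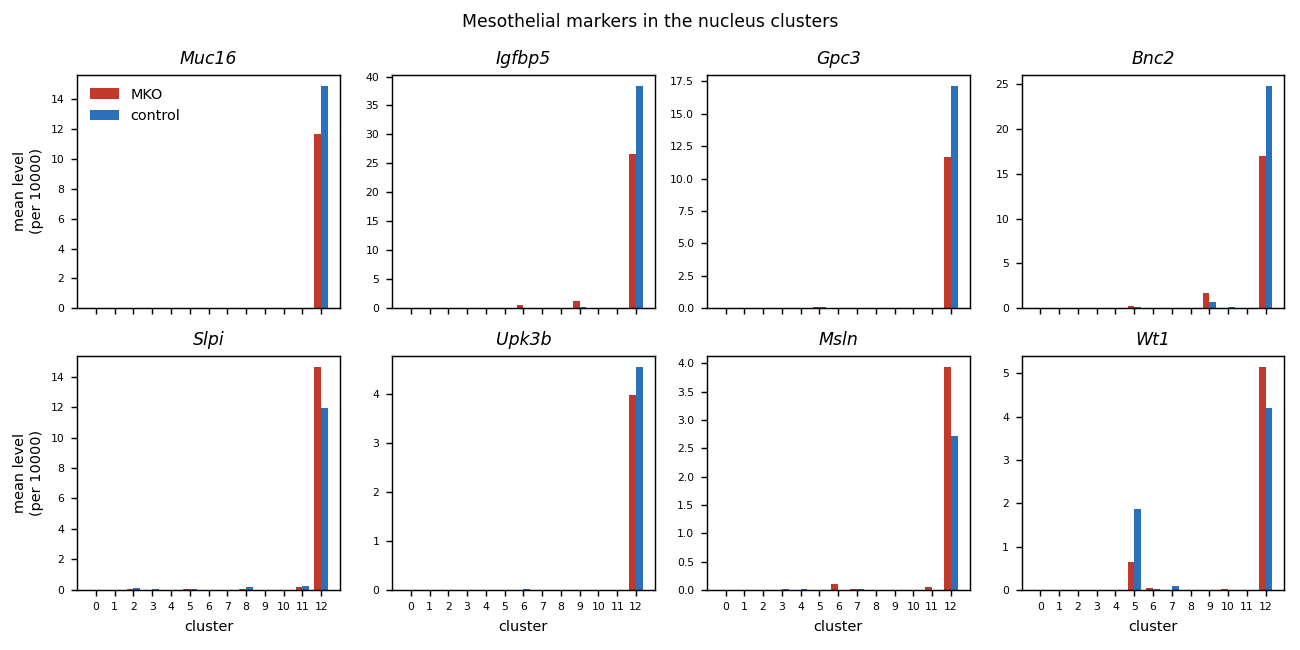
Mean level per 10000 (y axis) of 8 mesothelial genes in each of the 13 clusters (x axis), with the MKO pool as the left bar and the control pool as the right bar. Each bar is 1 pooled library with no replicate. Cluster 12 is the tallest pair in each panel. The largest bars outside it are Wt1 in control nuclei of stellate cluster 5 (1.87) and, in MKO nuclei of cluster 9, Bnc2 (1.68) and Igfbp5 (1.25). In the same clusters the other pool held 0.652 for Wt1, 0.677 for Bnc2 and 0.167 for Igfbp5.

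The wider list of mesothelial markers had its highest sum in cluster 12 in both pools. Of its 27 genes, 26 were listed in the nucleus table. In cluster 12, 17 of these were well measured and the other 9 were not. Of those 17, 16 stood 2-fold or more over every other cluster in both pools, as did 7.76% of all well-measured genes. The 5 given markers are among the 16, and all 17 were kept for their level in cluster 12. The count therefore describes the list and tests nothing. The summed level of the list, with the 5 given markers included, was 207 in MKO nuclei and 245 in control nuclei of cluster 12. The next highest sums were both in stellate cluster 5, at 43.1 in the MKO pool and 33.3 in the control pool, and there a single member, Dcn, gave 36.5 in the MKO pool and 25.5 in the control pool. Surface genes of this list included Msln (mesothelin), at 3.93 in MKO nuclei and 2.72 in control nuclei, and the uroplakins Upk3b, at 3.98 in MKO and 4.55 in control nuclei, and Upk1b, at 5.25 in MKO and 4.2 in control nuclei. The transcription factor Wt1 averaged 5.14 in MKO nuclei and 4.2 in control nuclei, against 0.652 in MKO and 1.87 in control nuclei of stellate cluster 5, and its 2.13-fold ratio in the control pool was the smallest among the 16 genes. The exception among the 17 was Dcn, a matrix proteoglycan of fibroblasts and stellate cells, which averaged 13.6 in MKO nuclei and 7.39 in control nuclei of cluster 12, below cluster 5 in both pools.

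Simple-epithelium keratins, which are widely used as mesothelial proteins, were barely captured in these nuclei. Krt7, Krt8, Krt18 and Krt19 lay between 0.143 and 0.967 in MKO nuclei and between 0 and 0.251 in control nuclei, and none was well measured. Podxl, a sialomucin of podocytes and endothelium, was at 0 in MKO nuclei and 0.101 in control nuclei. Tcf21, a factor of stellate cells, was at 0 in both.

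Markers of other liver cells were looked up in the same columns. Macrophage, T and NK cell, and B cell lists summed to 0.542 or less in either genotype, and Adgre1, Cd68, Cd3e, Cd79a and Ms4a1 were at 0. The stellate list summed to 18.3 in MKO nuclei and 20.6 in control nuclei of cluster 12, against 301 in MKO and 307 in control nuclei of cluster 5. Of its 16 genes, Ngfr, Rgs5 and Lhx2 were at 0 in both pools. The bile duct list summed to 21.8 in MKO nuclei and 31.9 in control nuclei, second only to cluster 6 with 153 in the MKO pool and 160 in the control pool. Most of it was Bicc1, an RNA-binding protein, at 19.5 in MKO nuclei and 27.8 in control nuclei. The portal fibroblast list summed to 4.98 in MKO nuclei, below the 6.13 of cluster 9, and to 8.6 in control nuclei, above the 5.91 of cluster 9 and the highest of all control clusters. Its largest member was Eln (elastin), at 1.96 in MKO nuclei and 4.01 in control nuclei, and Thy1, Pi16 and Mfap4 were at 0. The endothelial list summed to 7.15 in MKO nuclei and 0.902 in control nuclei. Stab2, a scavenger receptor of sinusoidal endothelium, gave 2.23 of it in MKO nuclei and 0.139 in control nuclei. The list of dividing-cell genes summed to 1.67 in MKO nuclei, with 7 of 8 members above 0, and to 0 in control nuclei. Hepatocyte markers were present at 106 in MKO nuclei and 68.1 in control nuclei. Alb alone was at 44 in MKO and 28.8 in control nuclei of cluster 12, and at 44.5 in MKO and 26.8 in control nuclei of stellate cluster 5. The hepatocyte, endothelial and dividing-cell sums were higher in the MKO column and the bile duct, portal fibroblast and stellate sums higher in the control column, and their part in the differences between the pools was not tested.

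**Figure D2:**
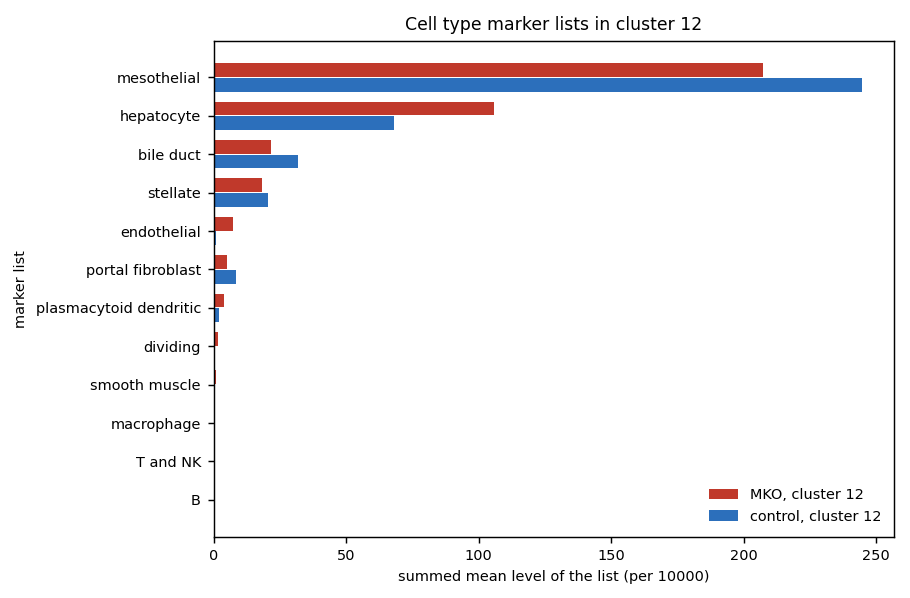
Summed mean level per 10000 (x axis) of 12 cell type marker lists (y axis) in cluster 12, with the MKO pool as the upper bar and the control pool as the lower bar of each pair. The mesothelial list is the longest pair, at 207 in MKO and 245 in control nuclei.

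Across all well-measured genes, 99 of 1276 (7.76%) stood 2-fold or more over every other cluster in both pools, and 50 did so at 4-fold. Since the nuclei were clustered on such genes, these counts describe the cluster and test nothing. Stellate cluster 5 had 140 such genes by the same rule and the other clusters between 6 and 88. The cluster holding the next highest level was most often cluster 5 (25 genes in the MKO pool and 28 in the control pool), cluster 6, where the bile duct list had its highest sum (23 in the MKO pool and 17 in the control pool), or cluster 9 (17 in the MKO pool and 16 in the control pool). Over the 1276 genes the rank correlation of cluster 12 with cluster 5 was 0.37 in the MKO pool and 0.33 in the control pool, with cluster 6 it was 0.35 in the MKO pool and 0.31 in the control pool, and with cluster 9 it was 0.33 in the MKO pool and 0.27 in the control pool. Between the MKO and control columns of cluster 12 itself it was 0.59. These values are descriptions, since genes are not independent and clusters of a pool share 1 library. The 1276 genes were also kept for their level in cluster 12, which itself shapes these correlations.

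After Muc16 the most exclusive gene was Kcnd2, a voltage-gated potassium channel subunit best known from neurons. It averaged 9.98 in MKO nuclei (7.98 to 12.3) and 22.9 in control nuclei (18.5 to 28), with no other cluster above 0.0336. Its paralogue Kcnd3 averaged 3.2 in MKO nuclei and 5.12 in control nuclei. Rbfox1, an RNA-splicing factor of neurons and muscle, averaged 15 in MKO nuclei (12.6 to 17.9) and 37.9 in control nuclei (32.1 to 44.3), against at most 0.284 elsewhere. Also among the 25 genes most above every other cluster were Il1rapl1, a synaptic adhesion protein, at 11.6 in MKO and 16.3 in control nuclei, and Ephb1, a receptor for ephrin-B ligands, at 5.2 in MKO and 6.64 in control nuclei.

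Some of the genes most above other clusters encode secreted or matrix proteins. Of the well-measured genes on the matrix lists, 2 of 7 matrix glycoproteins and proteoglycans and 2 of 4 matrix proteases and inhibitors passed. So did 1 of 7 basement membrane genes and none of 4 collagens. Over all well-measured genes 7.76% passed, and these lists are too short to set against that share. Rspo1, which strengthens Wnt signalling, averaged 4.54 in MKO nuclei (3.23 to 6.2) and 3.96 in control nuclei (2.27 to 6.41), with no other cluster above 0.0232. Igfbp6 averaged 4.63 in MKO nuclei and 3.42 in control nuclei. Sulf1, which trims sulfate from heparan sulfate chains, averaged 25.1 in MKO nuclei and 33.6 in control nuclei, and Efemp1, a fibulin, averaged 17.5 in MKO nuclei and 14 in control nuclei. Col4a4, a collagen of basement membranes, averaged 6.85 in MKO nuclei and 7.2 in control nuclei, on the log scale with the pseudocount 7.8-fold over the highest other cluster in the MKO pool and 9.19-fold in the control pool. Podn, a leucine-rich proteoglycan, averaged 4.64 in MKO nuclei and 7.48 in control nuclei.

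Several signalling routes were represented by receptors and surface modulators. From a list of 15 Hedgehog pathway genes, 5 were well measured, and 4 of these stood 2-fold or more over every other cluster in both pools. They were Gpc3, Smo (the pathway's signal transducer, at 4.83 in MKO and 6.37 in control nuclei), Gas1 (a co-receptor, at 6.01 in MKO and 4.76 in control nuclei) and Cdon (a co-receptor, at 6.18 in MKO and 5.08 in control nuclei). Over all well-measured genes that share was 7.76%. From the 18 BMP pathway genes listed, 5 were well measured and 1, the type I receptor Bmpr1b, passed, at 4.14 in MKO nuclei and 6.03 in control nuclei, with no other cluster above 0.0346. From 33 Wnt pathway genes 4 were well measured and 1, Rspo1, passed.

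TGF-beta ligands and receptors were mostly too scarce in cluster 12 to describe. From 12 ligands and activators, 3 were well measured. Ltbp1, which tethers latent TGF-beta to matrix, averaged 7.39 in MKO nuclei and 10.3 in control nuclei and was the only one past 2-fold over every other cluster in both pools. The ligand Tgfb2 averaged 2.01 in MKO nuclei and 3.64 in control nuclei. From 16 receptors and Smads, 3 were well measured and none passed. Over all well-measured genes 7.76% passed, and 3 genes per list are too few to set against that share. The co-receptor Tgfbr3 averaged 5.17 in MKO nuclei and 3.34 in control nuclei, and Tgfbr2 averaged 2.75 in MKO nuclei and 1.48 in control nuclei. The third well-measured gene of this list was Skil, a repressor of Smad signalling, at 0.739 in MKO nuclei and 2.48 in control nuclei. Skil was the only one of the 3 past 2-fold between the pools (log2 ratio -1.51), where 12.1% of all well-measured genes were 2-fold or more lower in MKO nuclei.

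From 17 fibrillar and other collagens, 4 were well measured and none stood 2-fold or more over every other cluster in both pools. Over all well-measured genes 7.76% did, and 4 genes are too few to set against that share. Col3a1 averaged 4.88 in MKO nuclei and 7.77 in control nuclei of cluster 12, against 5.3 in MKO and 5.49 in control nuclei of cluster 5. Among 25 basement membrane genes, 7 were well measured, and 1 of these (Col4a4) stood 2-fold or more over every other cluster in both pools. Against stellate cluster 5 alone 6 of the 7 did so, as did 22.6% of all well-measured genes. Fras1, an extracellular protein of epithelial basement membranes, averaged 3.6 in MKO nuclei and 2.72 in control nuclei, against 0.0292 in MKO and 0.0314 in control nuclei of cluster 5.

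Set against stellate cluster 5, 289 well-measured genes (22.6%) stood 2-fold or more higher in cluster 12 in both pools, and 37 (2.9%) stood 2-fold or more lower. Genes were kept by their level in cluster 12 alone, so the 2 counts cannot be set against each other. Of the 16 stellate markers, 13 were not well measured. Among these was Reln, at 43.9 in MKO and 55.3 in control nuclei of cluster 5. In cluster 12 it was at 0.321 in MKO and 0.583 in control nuclei. The widest ratios in favour of cluster 12 included Grip1, a synaptic scaffold protein, at 33.3 in MKO and 47.2 in control nuclei of cluster 12, against 0.0354 in MKO and 0.0322 in control nuclei of cluster 5. Igfbp5, the membrane glycoprotein gene Gpm6a and Pkhd1l1, which encodes a large surface protein, followed, with levels in cluster 5 of at most 0.0329. Gpm6a averaged 22.1 in MKO nuclei and 33.5 in control nuclei of cluster 12, and Pkhd1l1 averaged 14.1 in MKO nuclei and 17.7 in control nuclei.

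In the other direction stood genes that define the stellate cluster. Ank3, an ankyrin, averaged 0.801 in MKO nuclei (0.319 to 1.66) and 4.77 in control nuclei (2.89 to 7.4) of cluster 12, against 86 in MKO and 93.1 in control nuclei of cluster 5. Agtr1a, the angiotensin II receptor, averaged 2.1 in MKO nuclei and 1.17 in control nuclei of cluster 12, against 12.6 in MKO and 7.67 in control nuclei of cluster 5. Fgfr2, a fibroblast growth factor receptor, averaged 3.48 in MKO nuclei and 2.86 in control nuclei of cluster 12, against 19.2 in MKO and 19.6 in control nuclei of cluster 5. The developmental cofactor Zfpm2 was present in both clusters. It averaged 17.7 in MKO and 23.9 in control nuclei of cluster 12, against 22.3 in MKO and 28.5 in control nuclei of cluster 5.

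**Figure D3:**
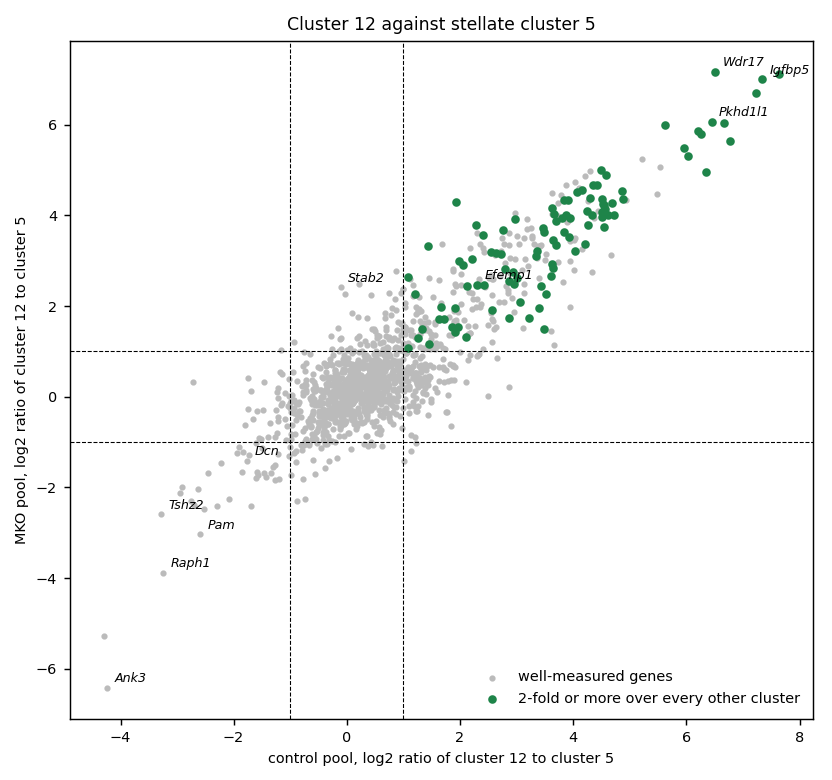
Log2 ratio of cluster 12 to stellate cluster 5 for 1276 well-measured genes, in the MKO pool (y axis) and the control pool (x axis), with a pseudocount of 0.205 per 10000. Dashed lines mark 2-fold, and green points are the 99 genes that stood 2-fold or more over every other cluster in both pools. Ank3 and Raph1 lie toward the lower left end, and Igfbp5 and Wdr17 at the upper right.

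The MKO and control columns of cluster 12 were then compared. Of 1276 well-measured genes, 88 (6.9%) were 2-fold or more higher in MKO nuclei and 155 (12.1%) were 2-fold or more lower, on a ratio with a pseudocount of 0.205. With 1 pool per genotype these counts have no test. The share of well-measured genes past 2-fold was 19% in cluster 12 (40 MKO and 21 control nuclei), 22% in cluster 10 (57 MKO and 31 control nuclei) and 10.9% in cluster 11 (42 MKO and 36 control nuclei). In the other clusters it ran from 2.23% in cluster 4 to 9.76% in cluster 2. Cluster 2 held 1676 MKO and 685 control nuclei, and cluster 8, with 165 MKO and 202 control nuclei, had 3.78%. The cut, the pseudocount and the genes kept differ between clusters, with a cut of 1.18 in cluster 5 and 2.05 in cluster 12. The part of nucleus number in these shares was not tested. Within cluster 12 the share was 41.4% among the 319 genes with the lowest mean level and 9.4% among the 319 with the highest. The lowest genes had mean levels of 2.03 or less, below the cut of 2.05, so each entered through its larger column alone. The filter itself makes their columns unequal, and their share cannot be read as an effect of low level. The balance of higher and lower genes depended on the scale and on which genes were kept. The filter takes the larger of 2 columns of unlike depth. A gene can therefore enter on about 12 UMIs in control nuclei alone or about 24 in MKO nuclei alone. The part of this in the balance was not tested. Centred on the median log2 ratio, which was -0.20, 133 genes were higher and 90 lower, and among 1967 genes with 20 or more UMIs over both pools 182 were higher and 146 lower.

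The genes that mark cluster 12 were chosen for standing high in both pools, so a gene low in either column could not be among them and their shares cannot be read against those of all genes. Among the 99 genes, 3 (3.03%) were 2-fold or more higher in MKO nuclei and 8 (8.08%) were 2-fold or more lower, and over all well-measured genes 6.9% were higher and 12.1% lower. Their median log2 ratio was -0.34, against -0.20 over all. None of the 17 well-measured mesothelial markers was past 2-fold in either direction, and their median was -0.33. The best counted genes past 2-fold in this group were Rbfox1 and Kcnd2, with log2 ratios of -1.32 and -1.18, and for each the MKO interval lay below the control interval. The MKO higher genes were Cadm2, a synaptic adhesion protein at 4.1 in MKO nuclei (2.86 to 5.7) and 0.638 in control nuclei (0.112 to 2), Frmd5 and Lrrc31. The MKO value of Cadm2 in cluster 11 was 1.68, the highest outside cluster 12.

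From 22 genes of complement and acute defence, 7 were well measured, and 2 of these, C3 and Serping1, were 2-fold or more higher in MKO nuclei and none lower. Over all well-measured genes 6.9% were higher and 12.1% lower. C3, the central complement component, averaged 20.3 in MKO nuclei (17.4 to 23.6) and 9.54 in control nuclei (6.79 to 13). Serping1, the C1 inhibitor, averaged 15 in MKO nuclei (12.5 to 17.8) and 6.05 in control nuclei (3.91 to 8.95). In stellate cluster 5, C3 was at 3.5 in the MKO pool and 2.21 in the control pool. Hepatocytes secrete both proteins, and the hepatocyte transcripts Ttr and Apoa1 were also higher in the MKO column of cluster 12, Ttr at 13.6 in MKO and 5.11 in control nuclei and Apoa1 at 13.9 in MKO and 6.98 in control nuclei. Their part in the C3 and Serping1 values was not tested.

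Axon guidance and adhesion genes were split. Of 34 in the list, 11 were well measured, 4 of them stood 2-fold or more over every other cluster, and 2 were 2-fold higher and 3 lower in MKO nuclei. Over all well-measured genes 7.76% stood over every other cluster, 6.9% were higher and 12.1% lower. The 11 genes were kept for their level in cluster 12 and are too few to set against these shares. The semaphorin receptor Plxna4 averaged 14.2 in MKO nuclei (11.8 to 17) and 31.3 in control nuclei (26.1 to 37.2), with the MKO interval below the control interval. Sema3c averaged 14.2 in MKO nuclei and 22 in control nuclei, and Sema3d averaged 10.4 in MKO nuclei and 18.5 in control nuclei, both short of 2-fold. Bmpr1a, a type I BMP receptor, averaged 5.36 in MKO nuclei (3.93 to 7.15) and 2.3 in control nuclei (1.07 to 4.31).

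The extremes of the ratio were genes of few molecules. The 10 highest MKO over control ratios belonged to genes with 25 to 49 UMIs in MKO nuclei and 1 to 4 in control nuclei, among them Phactr4, Stab2, Ifitm3 and Rpl13. Stab2 is an endothelial gene that averaged 65.2 in MKO and 70.5 in control nuclei of cluster 4, so its 26 UMIs in MKO nuclei of cluster 12 sit beside the higher endothelial sum given above. The 10 lowest ratios belonged to genes with 3 to 14 UMIs in MKO nuclei and 12 to 41 in control nuclei. Pde10a, a cyclic nucleotide phosphodiesterase, averaged 0.794 in MKO nuclei (0.315 to 1.65) and 7.2 in control nuclei (4.84 to 10.3). Esrrg, an orphan nuclear receptor, averaged 1.17 in MKO nuclei (0.561 to 2.15) and 6.2 in control nuclei (4.03 to 9.13). How many nuclei carry these molecules cannot be read from a mean.

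**Figure D4:**
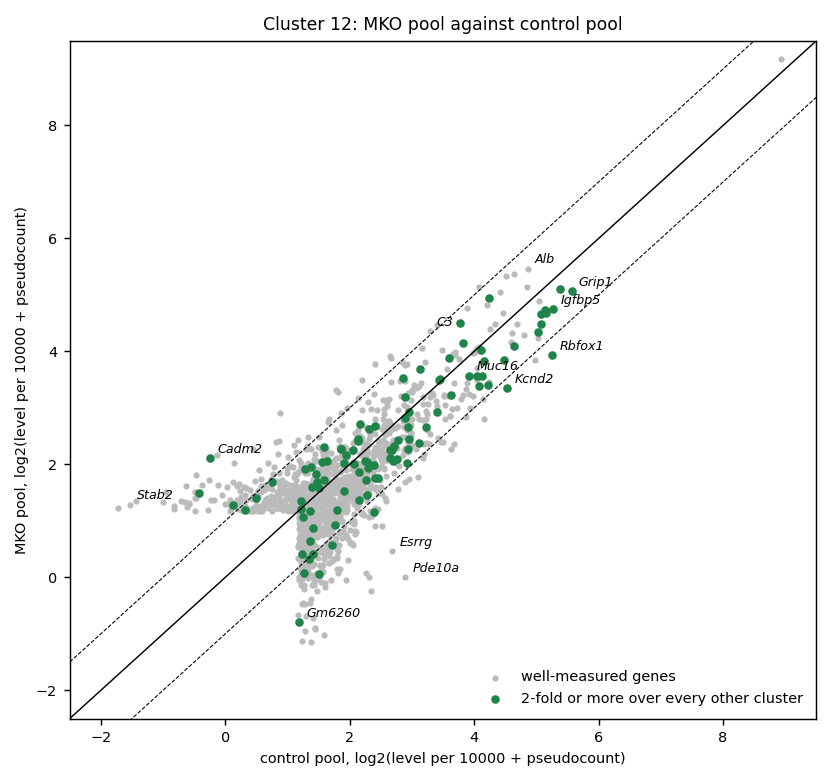
Level of 1276 well-measured genes in cluster 12 on a log2 scale with a pseudocount of 0.205 per 10000, with the MKO pool on the y axis and the control pool on the x axis. The solid line marks equal levels and the dashed lines 2-fold. Of the 319 genes with the lowest mean level, 41.4% are past 2-fold. Each of these 319 genes entered through its larger column alone, so the filter itself sets part of this scatter. Rbfox1 and Kcnd2 lie below the lower dashed line.

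Bulk liver RNA, measured apart from the nuclei, was read for the same genes. The 6 libraries held between 17448117 and 23986319 reads over 15283 genes. Of the 99 genes that stood highest in cluster 12, 65 were tested, and the other 34, with Bnc2, Upk3b, Upk1b, Kcnd2 and Rbfox1 among them, were not analysed here in bulk. By limma with Benjamini-Hochberg adjustment over 15249 genes, 1 of the 65 was called higher in MKO livers and none lower, while over all genes 2.96% were called higher and 0.0853% lower. Their median log2 change was 0.04, against -0.02 over all genes. Values of the genotypes did not overlap for 10 of the 65 (15.4%), against 19.4% of all genes. In whole liver, fewer cells of a type and less RNA per cell cannot be told apart.

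None of the 20 mesothelial markers tested in bulk was called by limma or by edgeR, 2 (Podxl and Ezr) had an unadjusted p under 0.05, and DESeq2 called Ezr alone. Over all 15249 genes limma called 3.05%, edgeR 3.16% and DESeq2 4.49%, and 1847 had an unadjusted limma p under 0.05. Whole liver includes RNA from other cells, and cluster 12 held 61 of 17485 nuclei. Podxl was at 0 in MKO and 0.101 in control nuclei of cluster 12. Its highest levels were 1.36 in MKO nuclei of cluster 9 and 1.1 in control nuclei of cluster 4. Dcn, Tcf21, Krt8, Krt18 and Krt19 were likewise higher in another cluster in both pools, while Ezr was among those highest in cluster 12. The part of other cells in these bulk values was not tested. Muc16 had 18.3, 2.04 and 6.74 size-factor-scaled counts in MKO livers and 14.1, 0 and 14.8 in control livers. The genotypes overlapped, and the spread within each exceeded the difference between them (log2 change 0.31, SE 1.13, limma adjusted p = 0.949). The sign depends on the method: the means were 9.03 ± 8.37 in MKO livers and 9.63 ± 8.35 in control livers (SD, n = 3 each), and the log2 change was -0.15 by edgeR and -0.10 by DESeq2. It also depends on single libraries, with a limma change of -0.35 without MKO liver 1 and -1.01 without control liver 2. Msln had 26.9, 4.08 and 2.89 in MKO livers and 8.69, 5.25 and 14.8 in control livers.

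Igfbp5 had 223, 65.3 and 90.5 in MKO livers and 130, 86.1 and 164 in control livers (log2 change -0.16, SE 0.43, limma adjusted p = 0.928). Gpc3 had 23.2, 4.08 and 17.3 in MKO livers and 16.3, 7.35 and 20.7 in control livers. In each of these genes MKO liver 1 was the highest library, as it was for 12 of 26 tested genes, namely Tgfbr1, the mesothelial markers and the 25 genes most above every other cluster, and control liver 3 was the highest for 7 more. How often each library was the highest over all bulk genes was not counted, so these counts cannot be read as a trait of cluster 12 genes. For Igfbp5 and Gpc3 the genotypes overlapped, and neither difference exceeded the spread between livers.

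Slpi had 22, 45.9 and 66.5 in MKO livers and 46.7, 76.6 and 75.9 in control livers (log2 change -0.66, SE 0.40, limma adjusted p = 0.592). Rspo1 had 11, 6.12 and 7.7 in MKO livers and 13, 10.5 and 16.8 in control livers, with an overlap at one value and a log2 change of -0.65 (SE 0.40, limma adjusted p = 0.592). Gpm6a had 39.1, 23.5 and 20.2 in MKO livers and 45.6, 31.5 and 65 in control livers (log2 change -0.76, SE 0.35, limma adjusted p = 0.455). These 3 genes had negative changes whichever library was left out, and none passed the threshold. Of the 26 genes, 15 kept their sign in all of these fits, 9 with positive and 6 with negative changes. Among the positive ones was Wt1, with 30.5, 21.4 and 20.2 in MKO livers and 11.9, 8.4 and 35.5 in control livers (log2 change 0.59, SE 0.50, limma adjusted p = 0.726), and its genotypes overlapped.

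Adgrd1, an adhesion G protein-coupled receptor, had the opposite sign in bulk, with 35.4, 9.18 and 22.2 in MKO livers and 7.6, 11.5 and 5.91 in control livers (log2 change 1.17, SE 0.52, limma adjusted p = 0.417). In cluster 12 it averaged 4.55 in MKO nuclei and 6.2 in control nuclei. Ezr, the microvillus linker ezrin, had 286, 256 and 303 in MKO livers and 157, 146 and 222 in control livers. Its genotypes did not overlap, and its log2 change was 0.70 (SE 0.18, limma adjusted p = 0.0993, edgeR adjusted p = 0.119, DESeq2 adjusted p = 0.0375). In cluster 12 it averaged 3.87 in MKO nuclei and 7.33 in control nuclei.

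The 1 called gene was Il16, a leukocyte-attracting cytokine. It had 140, 198 and 195 in MKO livers and 57.5, 78.7 and 65 in control livers, with no overlap (log2 change 1.39, SE 0.21, limma adjusted p = 0.00924). The adjusted p was 0.0591 without MKO liver 2 and 0.0564 without MKO liver 3, and between 0.0115 and 0.0312 without any other single library. In cluster 12 Il16 averaged 3.16 in MKO nuclei and 5.29 in control nuclei. Its next highest cluster in both pools was cluster 8, where the B cell list had its highest sum, at 0.716 in the MKO pool and 0.54 in the control pool. Cluster 8 held 165 MKO and 202 control nuclei, and the part of such cells in the bulk value was not tested.

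**Figure D5:**
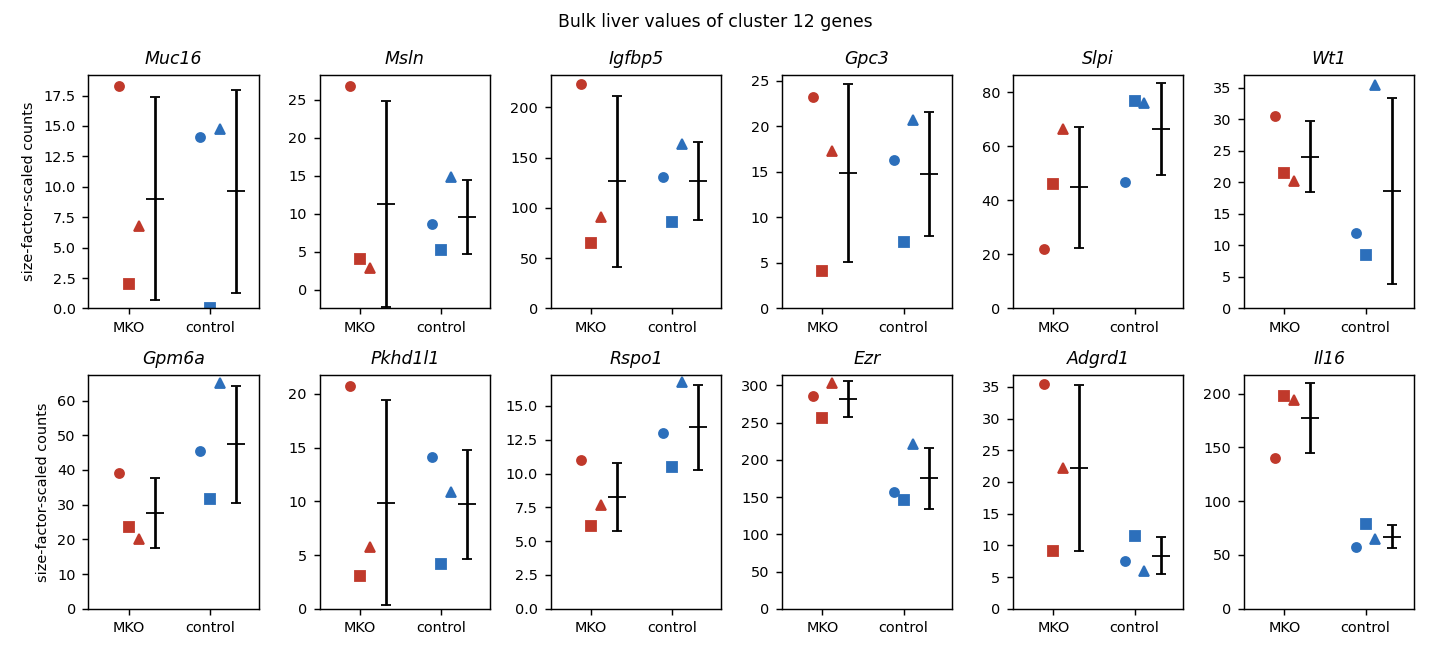
Size-factor-scaled counts (y axis) of 12 cluster 12 genes in 3 MKO livers (left) and 3 control livers (right) of each panel. Coloured points are single livers, with the circle, square and triangle for replicates 1, 2 and 3, and the black bar is the mean with its SD (n = 3). Muc16, Msln, Igfbp5 and Gpc3 overlap between genotypes with MKO liver 1 highest, and Ezr and Il16 do not overlap.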

How the data were processed

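Bulk liver RNA and single nuclei from sorted, propidium iodide-stained nuclei of frozen liver (10x Genomics Chromium) were measured, per the labels' protocols. The submitters' processing notes name FastQC, STAR, RSEM 1.3.3, DESeq2, Cell Ranger, Seurat 4.0.1 and mm10; no source used here states their settings, the clustering, the filters or any doublet removal. For nuclei the authors deposited a signal: a mean per gene, cluster and pool, in 26 columns that each sum to 10000. For bulk RNA the deposited signal is a count scaled by a size factor, with 1 read worth 0.963 to 1.22. Dividing by that worth gave whole reads in 100% of cases (tolerance 0.01). The authors' deposited log2 fold changes and p-values were not used.

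A gene with 1 UMI in 1 nucleus gives a column's smallest steps, and these recurred 40 times in the MKO and 21 times in the control column of cluster 12, which gave the number of nuclei and the UMIs of each. Values below 4 times the smallest step were sums of 1 to 3 steps in 100% of cases. Poisson intervals used the effective number of UMIs from the harmonic mean per nucleus.

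Well-measured genes had a larger value of both pools at or over percentile 90 of these values in cluster 12, zeros left out. Ratios used a pseudocount of 1/10 of that percentile, and 2-fold was the threshold. Bulk genes averaging 1 or more over the livers (15249, leaving out 34) were tested by limma-trend 3.58.1 in R 4.3.3 on log2(value + 1), genotype being the only term, with Benjamini-Hochberg adjustment and a threshold of 0.05; fold changes on this scale understate low genes. edgeR 4.0.16 and DESeq2 1.42.0 on recovered reads were alternatives. The procedures were tested on simulated data. Nothing in the labels apart from replicate numbers says that the livers of a genotype came from separate animals; p-values then reflect only how these samples vary, which may be technical. Every pair of libraries within a genotype differed by more than sampling noise.

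The members, marker lists and pathway lists were chosen with earlier results of these data known. Named genes are the 5 given markers, Tgfbr1, every listed mesothelial marker, up to 25 genes most above every other cluster, up to 10 in each direction for MKO over control and for cluster 12 over cluster 5, and up to 4 members of each other list by level; Il16, Frmd5, Lrrc31, Vim and Gbp2 were named after their values were seen, as members of small counts. Promoters came from RefSeq (GRCm38.p6) and gene positions from GENCODE vM21, matched by symbol. 1 gene that this rule selects is not reported here. Bulk values were listed for Tgfbr1, the mesothelial markers and the 25 genes most above every other cluster, 26 of which were tested.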

Additional observations from a re-analysis of the deposited data

How the results depend on the processing

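The 99 genes over every other cluster were 76 to 142 under other percentiles (95th and 80th) and 93 and 103 with a doubled and a halved pseudocount; at 4-fold there were 50. Genes past 2-fold between the MKO and control columns numbered 705 at the 80th percentile and 92 at the 95th, against 243, and those against stellate cluster 5 numbered 535 at the 80th percentile, against 326. Bulk calls over all genes ranged from 180 to 441 with 1 library left out, against 465; they were 180 without MKO liver 2, 190 without MKO liver 3 and 243 without control liver 2. Among the 65 genes of cluster 12 the bulk calls ranged from 0 to 2 with 1 library left out. DESeq2 called 4 of them (Il16, Vim, Gbp2 and Ezr), or 6.15%, and 684 of all genes, or 4.49%. The replicate numbers did not pair the livers (correlations of same-numbered deviations between -0.11 and 0.08); with them as a replicate block 2 of the 65 genes (Il16 and Vim) and 408 of all genes were called. Calls among Tgfbr1, the mesothelial markers and the 25 genes most above every other cluster, of which 26 were tested, ranged from 0 to 1 with 1 library left out, the 1 being Ezr without control liver 3. Of these 26 genes, 11 changed sign when a library was left out. Their log2 changes ranged from -1.01 to 0.98 for Muc16, -0.66 to 0.21 for Igfbp5, -0.60 to 0.53 for Gpc3, -0.27 to 0.035 for Tgfbr1, -1.15 to 0.27 for Msln, -0.90 to 0.31 for Pkhd1l1, -0.47 to 0.45 for Krt7, -0.26 to 0.039 for Krt8, -0.17 to 0.15 for Krt18, -0.43 to 0.36 for Krt19 and -0.45 to 0.36 for Igfbp6. Among these 11, edgeR and DESeq2 on whole reads gave the opposite sign to limma for Muc16 (-0.15 and -0.10) and Msln (0.16 and 0.22), and DESeq2 also for Gpc3, Pkhd1l1 and Igfbp6. For settings other than fewer genes or samples the cause was not tested. The nucleus comparison is limited by 1 pool per genotype and by depth, since a well-measured gene may rest on 12 UMIs in the control column.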
